A study of Mus musculus with 8 samples.

Results

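The genes described here carry fatty acids into skeletal muscle fibres and burn them in mitochondria. They were chosen by name: 29 of the 20972 mouse genes that could be named on the array, from fatty acid uptake, the carnitine shuttle and beta-oxidation, matched through the RefSeq accession of each probe. Of its 55681 probes, 39 belonged to them, and 20 of the 29 genes had a single probe. Their RNA was measured in the white portion of the gastrocnemius, a calf muscle of mostly fast fibres, from 4 wild type mice and 4 mice homozygous for mutant Pus1. Pus1 encodes a pseudouridine synthase that modifies uridines in tRNA. All 8 mice were 14 to 16 weeks old, and both groups were on C57BL/6J after 5 generations of backcrossing. Each 2-colour array held RNA of a single mutant and a single wild type animal of matching sex, giving 4 pairs. Pairs 1 and 2 were male and pairs 3 and 4 female, and the mutant carried Cy5 in pairs 1 and 3 and Cy3 in pairs 2 and 4. The sources used here do not give which part of Pus1 is altered or whether the mutation is limited to muscle.

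A fatty acid enters the fibre with the help of membrane proteins, is bound by a carrier protein in the cytosol, and is joined to coenzyme A. The carnitine shuttle moves it into the mitochondrial matrix, where a repeated cycle of dehydrogenation, hydration, dehydrogenation and thiolysis shortens it and releases acetyl-CoA. The electrons of the first step pass through the electron transfer flavoprotein to the respiratory chain. Slow, oxidative fibres rely on this pathway more than fast, glycolytic ones. Its genes are known targets of nuclear receptors of the PPAR and ERR families.

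No gene of the pathway passed the test between the genotypes. Of the 28 members whose probes were bright enough to test, 0 had an adjusted p under 0.05 in limma, beside 0.0% of all 23097 tested probes, and 1 had an unadjusted p under 0.05. That 1 gene was Acaa2, the mitochondrial thiolase, which was lower in mutants. Among all tested probes 1.86% were lower and 1.49% higher in mutants at an unadjusted p under 0.05. With separate channels and lmscFit, the count of members was also 0 after adjustment and 4 before it. In that setting 1629 of the 23097 tested probes passed before adjustment, against 774 in the main fit. The fitted mean lay below wild type for 23 of 28 members (82.1%) and above it for 5, while 49.6% of all tested probes lay below. With median centring in place of loess, 24 of 28 members and 70.3% of all tested probes lay below, and with the scanner's own processed signals 23 of 28 and 64.1%. The values were small: the fitted log2 ratio of mutant over wild type had a median of −0.10 and ranged from −0.45 to 0.19, against a median of 0.00 over all tested probes.

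**Figure D1:**
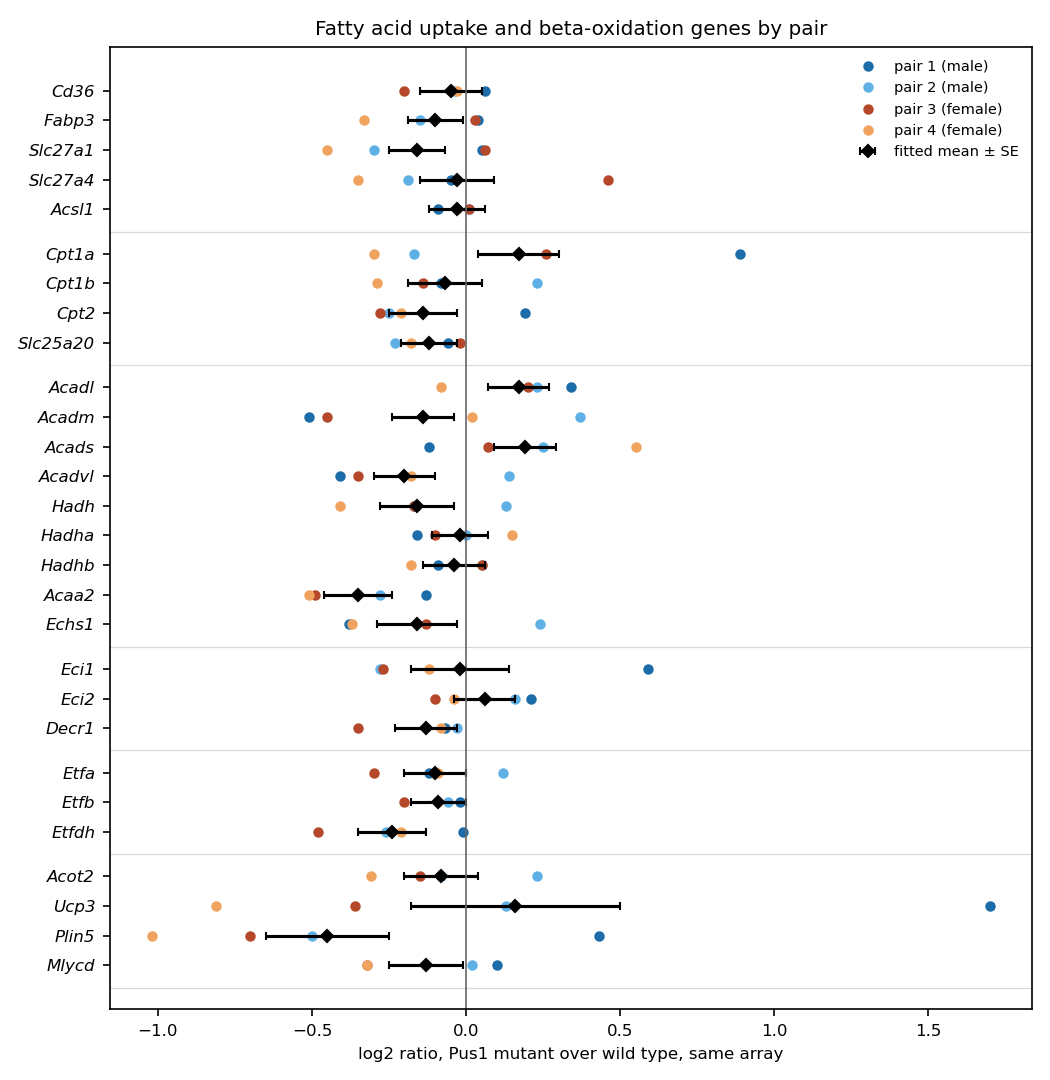
Log2 ratio of mutant over wild type for the 28 tested genes, ordered by role. Coloured points are the 4 pairs, and black diamonds with bars are the fitted mean ± SE. Most black diamonds lie left of 0 by less than the scatter between pairs, and the points of Ucp3 reach from −0.81 to 1.70.

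The members' count differed between pairs. In pair 1, 17 of 28 members were lower in the mutant, in pair 2 13, in pair 3 20 and in pair 4 25. The shares of all tested probes that were lower were 51.2%, 53.1%, 46.8% and 51.8% in the same pairs. The members' median log2 ratio was −0.06, 0.01, −0.16 and −0.19 in pairs 1 to 4. Thus pair 2 lay near 0 and pair 4 farthest below. Acaa2, Etfdh, Slc25a20, Decr1 and Etfb were lower in the mutant of all 4 pairs (5 of 28 members), as were 5.1% of all tested probes. For Decr1 and Etfb this held for the brightest probe and not for their other probes. In the opposite direction, 0 members were higher in all 4 pairs, against 4.83% of all tested probes. The 4 mutants did not all lie below the 4 wild type animals for any member (0 of 28, 0.714% of all tested probes), nor all above (0 of 28, 0.554% of all tested probes). In whole muscle RNA, fewer fibres of a type and less RNA per fibre cannot be told apart.

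**Figure D2:**
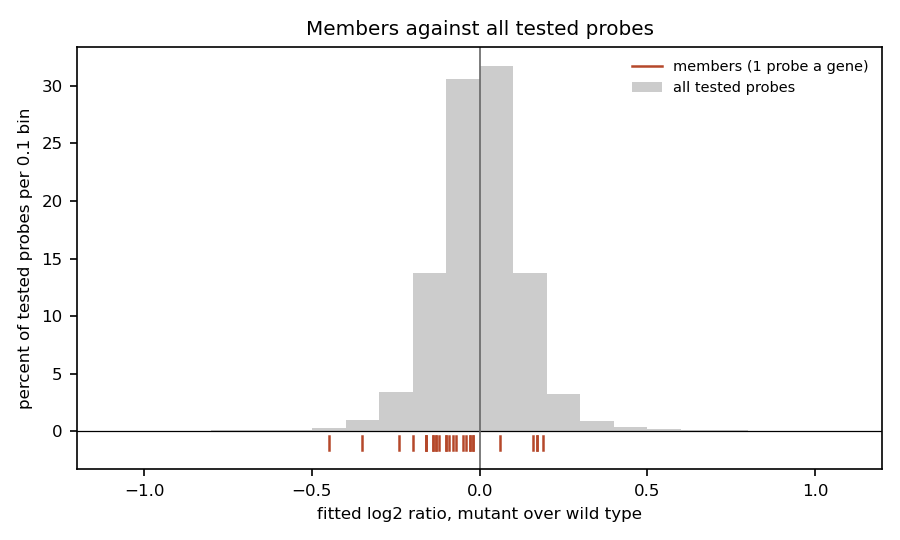
Fitted log2 ratios of mutant over wild type. Grey bars give the percent of all 23097 tested probes in bins of 0.1, and red ticks below the axis mark the 28 members. The ticks lie mostly left of 0, and all but those of Acaa2 and Plin5 fall between −0.24 and 0.19.

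The promoters of a few members are shown because PPAR receptors bind repeats of the hexamer AGGTCA, and Plin5, Acadvl, Ucp3 and Etfdh are among the members with the widest pair values or smallest p. The sequences are from RefSeq on build GRCm38.p6 and run from 250 bases before to 50 bases after a gene's start, on the gene's own strand. Capitals mark AGGTCA. The Plin5 window is chr17:56117499-56117798 (minus strand), that of Acadvl chr11:70015379-70015678 (minus), that of Ucp3 chr7:100472741-100473040 (plus) and that of Etfdh chr3:79628718-79629017 (minus).
Plin5: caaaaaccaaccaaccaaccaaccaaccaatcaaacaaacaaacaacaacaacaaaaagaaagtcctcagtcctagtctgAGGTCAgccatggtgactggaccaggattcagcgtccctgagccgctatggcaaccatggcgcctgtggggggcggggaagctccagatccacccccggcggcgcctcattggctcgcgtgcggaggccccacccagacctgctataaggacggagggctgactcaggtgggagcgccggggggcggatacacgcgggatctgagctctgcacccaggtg
Acadvl: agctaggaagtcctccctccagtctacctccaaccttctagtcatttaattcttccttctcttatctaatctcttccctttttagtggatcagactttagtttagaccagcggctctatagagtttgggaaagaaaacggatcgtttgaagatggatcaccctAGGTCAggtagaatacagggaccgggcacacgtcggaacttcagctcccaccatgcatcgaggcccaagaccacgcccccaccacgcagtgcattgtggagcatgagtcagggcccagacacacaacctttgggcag
Ucp3: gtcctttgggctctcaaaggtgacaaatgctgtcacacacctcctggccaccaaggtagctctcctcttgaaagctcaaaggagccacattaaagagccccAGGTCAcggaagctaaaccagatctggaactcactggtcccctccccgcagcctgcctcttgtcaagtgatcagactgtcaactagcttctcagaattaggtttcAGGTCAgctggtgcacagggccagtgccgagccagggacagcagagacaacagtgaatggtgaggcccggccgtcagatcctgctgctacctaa
Etfdh: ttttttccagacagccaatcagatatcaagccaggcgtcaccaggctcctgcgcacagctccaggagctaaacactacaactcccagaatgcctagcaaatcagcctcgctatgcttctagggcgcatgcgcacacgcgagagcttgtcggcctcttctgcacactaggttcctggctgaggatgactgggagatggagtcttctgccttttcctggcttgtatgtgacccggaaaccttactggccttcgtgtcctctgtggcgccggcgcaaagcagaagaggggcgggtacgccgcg
The hexamer starts at position −170 of the Plin5 window, at −87 of the Acadvl window and at −149 and −44 of the Ucp3 window, counted from the start of the gene. Plin5 has a second window from another start, chr17:56117249-56117548 (minus strand), which is not shown and holds the hexamer at position 13. The Etfdh window holds none. Searched on both strands, AGGTCA occurred in the promoter of 7 of 26 members with an entry (26.9%), namely Cd36, Cpt1a, Acadm, Acadvl, Echs1, Ucp3 and Plin5. Among all genes with an entry, 4900 of 27025 (18.1%) had it. These genes had 32851 promoter entries, so a gene can have more than 1 window. The direct repeat AGGTCANAGGTCA, which contains the hexamer, was in 0 of 26 members and in 13 of 27025 genes (0.0481%). No promoter entry was used for Acaa2, Cpt1b and Decr1, so their promoters are not shown.

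Uptake and activation comprised 5 genes, all with small values. The fitted mean was below wild type for 5 of 5, with a median log2 ratio of −0.05, and pair medians of 0.04, −0.15, 0.03 and −0.33. None of the 5 was past an unadjusted p of 0.05. Cd36 is the fatty acid translocase of the plasma membrane. Its normalized log2 intensity was 9.59, 9.75, 9.53 and 9.53 in the wild type mice of pairs 1 to 4, and 9.65, 9.71, 9.33 and 9.50 in their mutant partners. The groups overlapped, with mutant 3 the lowest animal. Its fitted log2 ratio was −0.05 (SE 0.10, n = 4 pairs, unadjusted p 0.593 in limma). Fabp3 encodes the muscle and heart fatty acid binding protein. Its level was 14.62, 14.87, 14.62 and 14.81 in wild type and 14.67, 14.72, 14.65 and 14.48 in mutants. Mutants 1 to 3 lay inside the wild type range and mutant 4 below it. The fitted ratio was −0.10 (SE 0.09), and a second Fabp3 probe gave −0.11.

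Slc27a1 encodes a fatty acid transport protein with acyl-CoA synthetase activity. Its level was 9.57, 9.71, 9.51 and 9.41 in wild type and 9.62, 9.41, 9.57 and 8.96 in mutants. Again mutant 4 alone lay below the wild type range. The pair ratios were 0.05, −0.30, 0.06 and −0.45, with a fitted mean of −0.16 (SE 0.09, unadjusted p 0.131 in limma). Slc27a4, a related transport protein, gave −0.03 (SE 0.12), with pair ratios from −0.35 to 0.46. Acsl1, the main long-chain acyl-CoA synthetase of muscle, gave −0.03 (SE 0.09), with 4 pair ratios between −0.09 and 0.01 for its brightest probe. A second Acsl1 probe gave −0.02, with pair ratios from −0.26 to 0.12.

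The carnitine shuttle comprised 4 genes, of which 3 had a fitted mean below wild type (median −0.10), and 0 were past an unadjusted p of 0.05. Cpt1b encodes the muscle form of carnitine palmitoyltransferase 1, the rate-controlling step of entry into mitochondria. Its level was 12.48, 12.20, 12.31 and 12.19 in wild type and 12.40, 12.43, 12.17 and 11.90 in mutants. Mutants 1 and 2 lay inside the wild type range and mutants 3 and 4 below it. The fitted ratio was −0.07 (SE 0.12, unadjusted p 0.573 in limma), with the same value from a second probe. Cpt1a, the form that prevails in liver, had pair ratios of 0.89, −0.17, 0.26 and −0.30 and a fitted mean of 0.17 (SE 0.13). Its second probe was well above background in 0 of 8 animals and was not tested. Cpt2, the transferase of the inner membrane, gave −0.14 (SE 0.11) and −0.21 from its other probe. Slc25a20, the carnitine-acylcarnitine translocase, gave −0.12 (SE 0.09), with 4 of 4 pair ratios below 0 (−0.23 to −0.02).

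The 9 genes of the beta-oxidation cycle held both the lowest unadjusted p and values on either side of 0. The fitted mean was below wild type for 7 of 9 (median −0.14). In pair 1 8 of 9 were lower in the mutant, in pair 2 1 of 9, and in pairs 3 and 4 6 of 9 each. The acyl-CoA dehydrogenases catalyse the first step and differ in the chain length they prefer. Acadvl acts on very long chains. Its level was 14.87, 14.57, 14.80 and 14.64 in wild type and 14.46, 14.71, 14.45 and 14.46 in mutants. Mutants 1, 3 and 4 lay below every wild type animal, and mutant 2 lay among them. The pair ratios were −0.41, 0.14, −0.35 and −0.18, with a fitted mean of −0.20 (SE 0.10, unadjusted p 0.0931 in limma).

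Acadl, the long-chain enzyme, had levels of 10.77, 10.91, 10.93 and 10.75 in wild type and 11.11, 11.14, 11.12 and 10.67 in mutants. Mutants 1 to 3 lay above every wild type animal and mutant 4 below every one. Its fitted ratio was 0.17 (SE 0.10, unadjusted p 0.146 in limma). Acadm, the medium-chain enzyme, had levels of 14.29, 14.02, 14.30 and 13.98 in wild type and 13.79, 14.40, 13.85 and 13.99 in mutants. Mutants 1 and 3 were the lowest of the 8 animals and mutant 2 the highest. The pair ratios were −0.51, 0.37, −0.45 and 0.02, and the fitted mean −0.14 (SE 0.10, unadjusted p 0.218 in limma). Acads, the short-chain enzyme, had levels of 9.17, 9.17, 9.44 and 9.10 in wild type and 9.05, 9.42, 9.51 and 9.65 in mutants. Mutants 3 and 4 were above every wild type animal and mutant 1 below every one. Its fitted ratio of 0.19 (SE 0.10, unadjusted p 0.119 in limma) was the highest among the members. Acads is the 1 member that lies within 20 Mb of Pus1 on chromosome 5, so for this gene the Pus1 mutation and any strain sequence carried along with it cannot be told apart.

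Acaa2 encodes the 3-ketoacyl-CoA thiolase that performs the last step of the cycle on medium-length chains. Its level, the mean of 10 spots, was 13.65, 13.96, 13.93 and 13.79 in wild type and 13.53, 13.68, 13.44 and 13.27 in mutants. Mutants 1, 3 and 4 lay below every wild type animal, while mutant 2 lay just above wild type animal 1. The mean was 13.83 ± 0.14 over the wild type mice and 13.48 ± 0.17 over the mutants (SD, 4 animals each). The pair ratios were −0.13, −0.28, −0.49 and −0.51, and the fitted log2 ratio was −0.35 (SE 0.11), or 1.28-fold on the linear scale. Its unadjusted p was 0.0177 and its adjusted p 1.0 in limma. Without pair 4 and in the authors' deposited table, Acaa2 was no longer past an unadjusted p of 0.05.

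**Figure D3:**
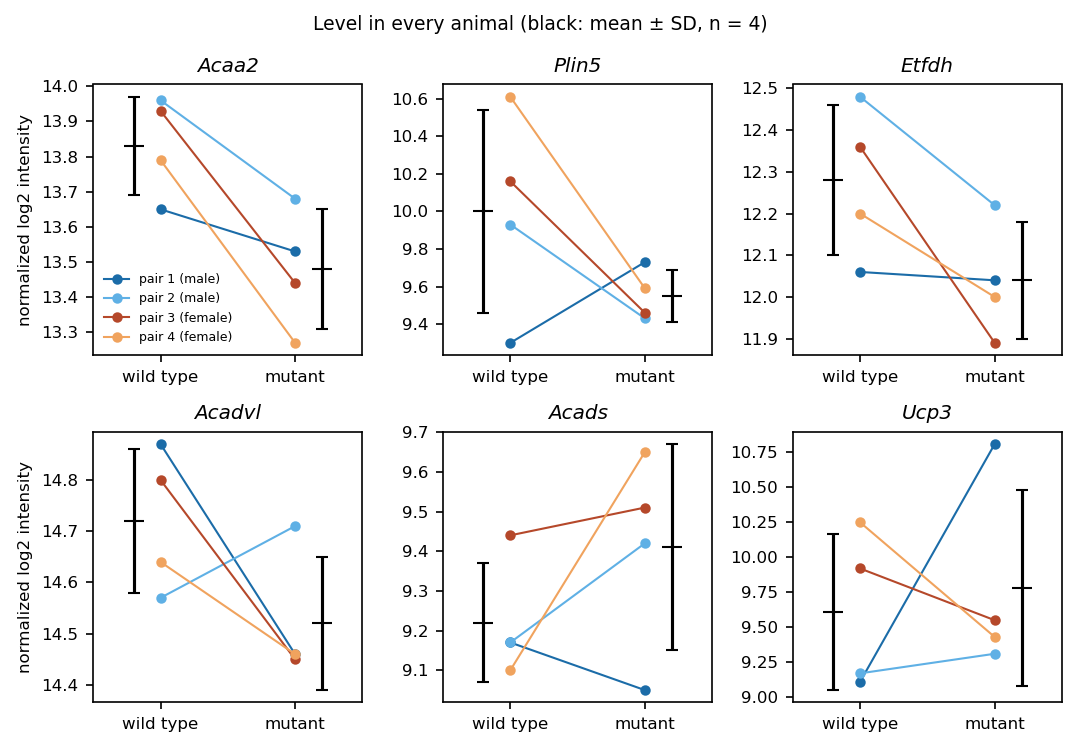
Normalized log2 intensity of 6 members in every animal, wild type on the left and mutant on the right of each panel, with lines joining the animals of a pair. Black bars give the mean ± SD of 4 animals, and each panel has its own axis, which does not start at 0. Mutants 1, 3 and 4 lie below all wild type animals for Acaa2, Etfdh and Acadvl, and mutant 2 does not.

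The trifunctional protein, which carries out the later steps on long chains, is built from Hadha and Hadhb. Hadha had levels of 10.46, 10.37, 10.53 and 10.16 in wild type and 10.30, 10.38, 10.44 and 10.31 in mutants. All 4 mutants lay inside the wild type range, and the fitted ratio was −0.02 (SE 0.09, 95% interval −0.25 to 0.20). Hadhb gave −0.04 (SE 0.10). Hadh, the short-chain hydroxyacyl-CoA dehydrogenase, gave −0.16 (SE 0.12). Echs1, the short-chain enoyl-CoA hydratase, also gave −0.16 (SE 0.13), with pair ratios of −0.38, 0.24, −0.13 and −0.37.

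The 3 auxiliary enzymes handle the double bonds of unsaturated fatty acids, and all were near 0. The isomerase Eci1 gave −0.02 (SE 0.16), with pair 1 at 0.59 and the other pairs from −0.28 to −0.12. Its relative Eci2 gave 0.06 (SE 0.10). The dienoyl-CoA reductase Decr1 gave −0.13 (SE 0.10), with 4 of 4 pair ratios below 0. A second Decr1 probe gave −0.12, with pair ratios of 0.22, −0.19, −0.24 and −0.26.

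The electron transfer genes had a fitted mean below wild type in 3 of 3 (median −0.10), none past an unadjusted p of 0.05. Etfdh encodes the dehydrogenase that hands electrons from the flavoprotein to ubiquinone. Its level was 12.06, 12.48, 12.36 and 12.20 in wild type and 12.04, 12.22, 11.89 and 12.00 in mutants. As for Acaa2, mutants 1, 3 and 4 lay below every wild type animal and mutant 2 did not. The pair ratios were −0.01, −0.26, −0.48 and −0.21, with a fitted mean of −0.24 (SE 0.11, unadjusted p 0.0772 in limma). The flavoprotein subunits gave −0.10 (SE 0.10) for Etfa and −0.09 (SE 0.09) for Etfb. A second Etfa probe gave −0.15. The other Etfb probes gave −0.04 and 0.13 and were lower in 3 and in 1 of the 4 pairs, so the sign for Etfb depends on the probe.

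The remaining 5 genes control how fatty acids are stored or spared, and they held the widest spread between animals. Plin5 encodes a perilipin that ties lipid droplets to mitochondria. Its level was 9.30, 9.93, 10.16 and 10.61 in wild type and 9.73, 9.43, 9.46 and 9.59 in mutants. All 4 mutants lay inside the range of the wild type animals, a wider range than their own. The SD was 0.54 over the 4 wild type mice and 0.14 over the 4 mutants. Pair ratios were 0.43, −0.50, −0.70 and −1.02, and the fitted log2 ratio was −0.45 (SE 0.20), or 1.36-fold on the linear scale, with an unadjusted p of 0.0679 in limma. The ratio of Plin5 ranged from −0.73 without pair 1 to −0.17 without pair 3. It was past an unadjusted p of 0.05 without pair 1, with median centring, with separate channels and with dim probes kept, and its adjusted p stayed at 0.252 or above in every setting run.

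Ucp3 encodes a mitochondrial carrier of muscle known to rise with fatty acid supply. Its level was 9.11, 9.17, 9.92 and 10.25 in wild type and 10.81, 9.31, 9.55 and 9.43 in mutants. Mutant 1 was the highest of all 8 animals, and the other mutants lay inside the wild type range. The means were 9.61 ± 0.56 and 9.78 ± 0.70 (SD, n = 4 each). The pair ratios were 1.70, 0.13, −0.36 and −0.81, and the fitted mean was 0.16 (SE 0.34, unadjusted p 0.646 in limma) with 0.18 from a second probe. Without pair 1 the fitted ratio of Ucp3 was below 0 and without pair 4 above it, so no direction held (range −0.35 to 0.68 over the 4 omissions).

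Mlycd, which degrades the Cpt1 inhibitor malonyl-CoA, gave −0.13 (SE 0.12). The matrix thioesterase Acot2 gave −0.08 (SE 0.12). The cytosolic thioesterase Acot1 was well above background in 3 of 8 animals and was not tested, with levels of 6.81, 6.62, 7.06 and 6.97 in wild type and 6.74, 6.82, 6.80 and 6.45 in mutants. Acot1 and Acot2 are near-identical in sequence, so each of these probes may also report the other gene.

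The precision allows a statement on size. The SE of a member's fitted ratio was 0.09 to 0.34 (median 0.10). For 25 of 28 members the 95% interval lay within a 1.5-fold difference on both sides. The exceptions were Acaa2 (−0.62 to −0.09), Ucp3 (−0.67 to 1.00) and Plin5 (−0.94 to 0.05), and the interval held 0 for 27 members. These intervals are not adjusted for the number of genes.

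Because both sexes were used, the genotype ratio of female pairs was set against that of male pairs. The difference passed an adjusted p of 0.05 for 0 of 28 members and for 0.0% of all tested probes in limma. At an unadjusted p under 0.05 it did so for 2 members and 2.19% of all tested probes. These were Ucp3 (female minus male −1.50, SE 0.32, unadjusted p 0.0037) and Plin5 (−0.82, SE 0.25, unadjusted p 0.0187). For both, the wild type females had higher levels than the wild type males, and the mutant females lay inside the range of the mutant males. The difference was below 0 for 23 of 28 members, and for 45.9% of all tested probes, with a median of −0.19 beside 0.02 over all tested probes. Each sex held 2 pairs, and 1 pair of each sex carried the opposite dye orientation. This fit left 1 residual degree of freedom per probe, so its SE and p lean on the spread that limma shares over all probes.

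Other genes of lipid use were grouped around the pathway, and in these 8 lists 0 genes passed an adjusted p of 0.05 in limma. The lists were chosen with earlier results of these data known, so their counts only describe. Over all tested probes, 1.86% were lower and 1.49% higher in mutants at an unadjusted p under 0.05. Lpl, the lipase that frees fatty acids from circulating triglyceride, had a level of 11.86, 12.14, 11.62 and 11.70 in wild type and 11.14, 11.64, 10.59 and 10.83 in mutants. Its fitted log2 ratio was −0.78 (SE 0.11), with −0.48 from a second probe. It was the 1 gene of 13 in lipid droplets and lipolysis past an unadjusted p of 0.05, and 11 of those 13 had a fitted mean below wild type (median −0.07). Peroxisomal oxidation had 10 of 17 below (median −0.01) and none past the unadjusted threshold. The other acyl-CoA synthetases and dehydrogenases had 3 of 16 lower and 1 higher at that threshold (median −0.11). These were the mitochondrial acetyl-CoA synthetase Acss1 (−0.63, SE 0.13), the leucine-pathway dehydrogenase Ivd (−0.30, SE 0.10) and, higher, the long-chain synthetase Acsl3 (0.47, SE 0.09).

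The list of carnitine supply and acetyl transfer had 1 of 5 genes past the unadjusted threshold, the mitochondrial carrier Slc25a29 (−0.41, SE 0.10). In that list 4 had a fitted mean below wild type and 1 above. Slc22a5 gave −0.17 (SE 0.09, unadjusted p 0.117 in limma). In ketone body use 1 of 6 was past that threshold, the hydroxybutyrate dehydrogenase Bdh1 (−1.28, SE 0.19, and −0.81 from a second probe). Its pair 2 ratio was −0.15, against −2.28, −1.59 and −1.10 in the other pairs. Fatty acid and triglyceride synthesis had 1 of 14 lower, the acyltransferase Dgat2 (−0.71, SE 0.13), and 3 higher. Of these, Srebf1, a transcription factor of lipid synthesis, gave 0.32 (SE 0.10), and Gpat3, an acyltransferase that lies within 20 Mb of Pus1, gave 0.74 (SE 0.10).

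Among 18 regulators of fatty acid oxidation, 4 were lower and 0 higher at an unadjusted p under 0.05, with a median of −0.15. The shares of all tested probes were 1.86% and 1.49%. Ppara, the receptor that fatty acids activate, had a level of 9.23, 9.59, 9.54 and 9.67 in wild type and 8.56, 9.15, 9.06 and 8.90 in mutants. All 4 mutants lay below the 4 wild type animals, as for 0.714% of all tested probes, and the fitted log2 ratio was −0.59 (SE 0.10). Other Ppara probes gave −0.70 and −0.08. Esrrb, an oestrogen-related receptor, and Klf15, a factor that promotes lipid use in muscle, each gave −0.49 (SE 0.10). Of 10 further PPAR targets, 1 was lower and 2 higher at that threshold (median 0.14). Pdk4, the kinase that turns off pyruvate oxidation when fat is used, had pair ratios of 2.65, 0.97, 1.06 and −0.98 and a fitted mean of 0.93 (SE 0.38). Like Ucp3, it was highest in mutant 1 (14.80) among the 8 animals.

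**Figure D4:**
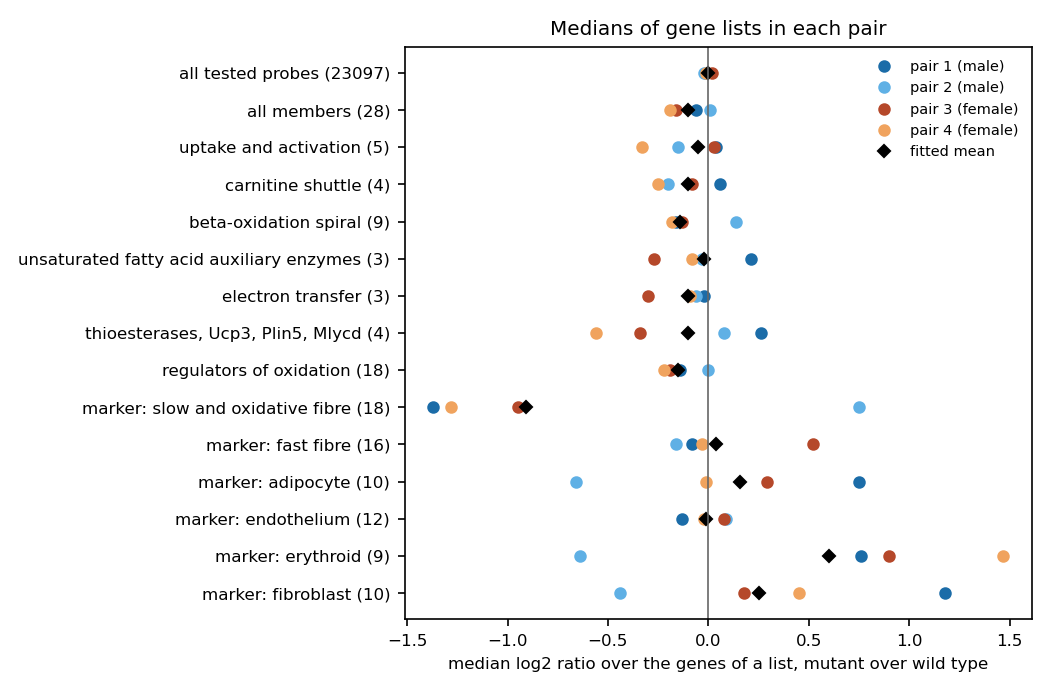
Median log2 ratio of mutant over wild type for the lists shown, in each pair (coloured points) and for the fitted mean (black diamonds). The number of tested genes or probes is in brackets. Of the further lipid lists only the regulators are plotted, and the macrophage markers are not. The members' medians lie between −0.19 and 0.01, and the slow-fibre markers at 0.75 in pair 2 and from −1.37 to −0.95 in the other pairs.

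Markers of fibre type and of other cells differed between the pairs as well. Markers of slow and oxidative fibres had a fitted mean below wild type in 18 of 18 (median −0.91), beside 49.6% of all tested probes. Of the 18, 5 were past an unadjusted p of 0.05, where 1.86% of all tested probes were lower. Within 20 Mb of Pus1 lie 2 of the 18, and for those the mutation and any strain sequence carried along cannot be told apart. The pair medians of the slow-fibre markers were −1.37, 0.75, −0.95 and −1.28. Their summed linear intensity was 307000 to 363000 in wild type and 230000 to 301000 in mutants, and 17 of 18 were well above background in all 8 animals. Markers of fast fibres had a median of 0.04 and pair medians of −0.08, −0.16, 0.52 and −0.03. Their sums were 2300000 to 3440000 in wild type and 2670000 to 3940000 in mutants. All 16 of 16 were well above background in all animals, but so were 17 of 18 slow-fibre markers, so detection alone does not tell the fibre type. Of these 16, 11 had a fitted mean above wild type and 5 below. At an unadjusted p under 0.05, 3 were lower and 0 higher. They were the fast myosin heavy chains Myh1 (−1.29, SE 0.25, lower in 4 of 4 pairs) and Myh2 (−1.48, SE 0.43, lower in 3), and the Z-disc protein Myoz3 (−0.30, SE 0.10). Pair 2 thus differed from the others in the slow-fibre markers, in the beta-oxidation cycle and in Bdh1; the part of fibre type in the members' values was not tested.

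Adipocyte markers had a fitted mean above wild type in 7 of 10, with 1 past an unadjusted p of 0.05, pair medians of 0.75, −0.66, 0.29 and −0.01 and sums of 78200 to 212000 in wild type and 98300 to 172000 in mutants. Of their 11 genes 8 were well above background in all animals, and Lep was so in none. Markers of endothelium, which also expresses Cd36, had pair medians of −0.13, 0.09, 0.08 and −0.02, with 1 of 12 past that threshold, higher, and sums of 21500 to 25800 and 21800 to 28100. That gene was Fabp4 (0.26, SE 0.09), which is in 3 of the lists. It was also the 1 adipocyte marker past the threshold and 1 of the 2 higher PPAR targets. Erythroid markers were above wild type in 8 of 9, with 0 past that threshold, a median of 0.60, pair 2 at −0.64 and sums of 51200 to 180000 and 94400 to 442000. Fibroblast markers were above wild type in 10 of 10 (median 0.25), with 3 past an unadjusted p of 0.05 and higher in the mutant of all 4 pairs. These were the collagens Col1a1 (0.78, SE 0.22), Col3a1 (0.72, SE 0.26) and Col1a2 (0.56, SE 0.20). The fibroblast pair medians were 1.18, −0.44, 0.18 and 0.45, with sums of 30500 to 52900 and 40400 to 56700. Macrophage markers were above wild type in 7 of 7, with 0 past that threshold, a median of 0.24 and sums of 2050 to 2730 and 2220 to 4250. Their pair medians were 0.89, −0.31, −0.15 and 0.38, with 7 of 7 lower in the mutant of pair 2 and 5 in pair 3. Of their 9 genes on the array 4 were well above background in all animals, and Cd163 was so in none. The part of these cells in the members' values was not tested.

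As a check of the labels, the Pus1 probe was above background in 4 wild type animals and 0 mutants. Mutants thus give only a bound, and Pus1 was at least 2.76-fold lower in them (means of 8.22 and 6.75 as measured, adjusted p 0.0787 in limma), the wild type mean being set against the higher of the mutant signal and the dimmest signal above background. Between 38.0% and 46.5% of spots per animal were well above background, 0 member probes were saturated, and the members were brighter (median mean log2 intensity 12.21) than all tested probes (8.61).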

How the data were processed

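The deposited scanner files hold median spot and background intensity on a linear scale and, as other values, 0 or 1 flags for spots above background, saturated or outlying, per the file headers (Agilent Feature Extraction 10.7.3.1 in the submitters' processing notes). The deposited series table holds log2 values, centred per probe, and served as an alternative; the sources used here do not give its normalization.

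Intensities were corrected with normexp (offset 50) and normalized by loess within arrays. Aquantile between arrays gave the levels per animal. A probe was tested if it had a value on 4 arrays and 4 or more of 8 animals were well above background (23097 probes). limma 3.58.1 (R 4.3.3) fitted the log2 ratio of mutant over wild type with a dye term, and Benjamini-Hochberg adjustment ran over all tested probes. SE is the moderated error. The brightest tested probe stood for a gene. Animals were given one by one for the 8 members with the smallest unadjusted p and for Cd36, Fabp3, Cpt1b, Hadha, Acadvl and Ucp3, and at most 3 genes were named from each further list. The members and lists were chosen with earlier results of these data known. Names came from a GRCm38.p6 gene table, whereas the file headers name build mm9, so only promoter coordinates are printed.

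The pairing is physical, since both animals of a pair share an array. Their deviations from the group means correlated at 0.66, 0.279, 0.0604 and 0.636. The 4 arrays lay on 1 slide, and their number limits the precision.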

Additional observations from a re-analysis of the deposited data

Results flagged for a closer look

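In 4 of 56 groups of 4 animals (28 members, both genotypes), 1 animal lay apart by more than Dixon's 95% bound, and chance gives about 1 in 20 groups. For Ucp3, mutant 1 had a normalized log2 intensity of 10.81 against a mean of 9.43 in the other mutants. For Acadvl, mutant 2 had 14.71 against 14.46. For Acadl, mutant 4 had 10.67 against 11.12. For Slc27a4, wild type animal 4 had 7.91 against 7.45. The animal was a different one for each of the 4 genes.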

How the results depend on the processing

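No member passed an adjusted p of 0.05 under any alternative run (smallest 0.137, without pair 3), and the sex difference gave 0 members in each of its alternatives. The count of members below wild type stayed between 19 and 24, and their median between −0.185 (median centring) and −0.049 (without pair 4). Without the paired analysis (no replicate block) it was 23 members and −0.095. Members at an unadjusted p under 0.05 numbered 2 with median centring, 2 with no filter, 4 with separate channels, 0 in the authors' deposited table and 0 to 4 with a pair left out. The same count over all tested probes was 774 in the main fit, 715 with median centring, 1629 with separate channels and 909 in the authors' table. With no filter it was 2005 of 55591 probes. With a pair left out it was 235 to 3442, and 2042 without pair 1, where 4 members passed. Probes past an adjusted p of 0.05 numbered 23 with median centring, 5 with no filter, 2 with no dye term, 3 with no replicate block, 13 with separate channels, and 0 to 245 with a pair left out, the highest without pair 3. Among the 5774 brightest tested probes, which held 18 members, the share below wild type was 48.4% with loess and 78.3% with median centring, and 16 and 17 of those members were below. Of the members, 2 changed sign under other settings, Eci2 (−0.03 with median centring) and Etfb (0.0 as the mean over its probes); the cause was not tested. With a pair left out, 9 of 28 members changed sign, in the ranges −0.16 to 0.09 for Slc27a4, −0.02 to 0.13 for Eci2, −0.35 to 0.68 for Ucp3, −0.06 to 0.01 for Hadha, −0.24 to 0.20 for Eci1, −0.12 to 0.01 for Cd36, −0.20 to 0.06 for Cpt1b, −0.10 to 0.02 for Hadhb and −0.21 to 0.06 for Acot2. Those fits keep the dye term, so the lone pair of a dye orientation weighs as much as the other pairs together.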
